A study of Homo sapiens with 4 samples.

Results

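The Krüppel-like factors (KLF) are zinc finger transcription factors that bind GC-rich and CACCC sequences, and they are described here through 10 of their genes, *KLF3*, *KLF4*, *KLF5*, *KLF6*, *KLF7*, *KLF9*, *KLF10*, *KLF11*, *KLF13* and *KLF15*. The members were given by name and found by identity of the gene symbol, 10 of the 23287 gene symbols in the RNA-seq files. The files hold 17 KLF genes in all, of which 12 reached 1 FPKM, a fragment count scaled to transcript length and library size, in the EtOH or the R5020 library, so the 10 members leave out *KLF8* and *KLF16*, which also reached it.

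The cells were T47D, an established human line of luminal breast carcinoma that expresses the progesterone receptor (PR), and R5020 is a synthetic progestin. All libraries came from this 1 line at passages 5 to 8, kept in charcoal-stripped, hormone-poor serum for 24 h before RNA isolation and for 3 days before the ChIP assay. RNA was sequenced in 1 library from cells given 10 nM R5020 for 3 h and in 1 from cells given the vehicle, ethanol (EtOH), for the same time, and there was 1 ChIP-seq library of the PR after 10 nM R5020 for 1 h, with input DNA as the control of the site calling. No PR ChIP-seq library of vehicle-treated cells was analysed here, so the binding sites describe hormone-treated cells only. With 1 library per condition, every difference below compares 2 libraries, has no replicate among the libraries and carries no p-value or standard error.

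KLF proteins share a zinc finger domain at the carboxy terminus and differ in the rest of the protein, which recruits the cofactors. *KLF4*, *KLF5*, *KLF6* and *KLF7* belong to a class that mainly activates transcription through acetyltransferases, *KLF9*, *KLF10*, *KLF11* and *KLF13* to a class that recruits the corepressor SIN3A, and *KLF3* to a class that recruits the corepressor CtBP. *KLF15* stands outside these classes. In steroid-responsive tissue the family is known for its part in the balance of proliferation and differentiation, *KLF9* is known as a partner of the PR in the endometrium, and *KLF9* and *KLF15* are known as genes induced by glucocorticoids, whose receptor recognises the same DNA element as the PR.

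The PR binds as a dimer to an inverted repeat, and the element with the arms GNACA and TGTNC, separated by NNN, was searched on both strands of every site within 50 kb of a member. It occurred in 3 sites, 1 each at *KLF9*, *KLF13* and *KLF15*. The stretches below are the plus strand of GRCh37, the assembly of hg19, with the match in capitals. The *KLF15* stretch lies at chr3:126074774-126074886 in an intron of the gene, that of *KLF9* at chr9:73034992-73035104 upstream of the gene, and that of *KLF13* at chr15:31658065-31658177 in an intron. *KLF9*, *KLF13* and *KLF15* belong together here because no other member had this sequence in a site.
KLF15: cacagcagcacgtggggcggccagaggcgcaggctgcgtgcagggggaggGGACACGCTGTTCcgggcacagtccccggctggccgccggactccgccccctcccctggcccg
KLF9: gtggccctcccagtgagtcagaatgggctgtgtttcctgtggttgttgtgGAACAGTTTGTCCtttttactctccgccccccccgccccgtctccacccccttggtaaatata
KLF13: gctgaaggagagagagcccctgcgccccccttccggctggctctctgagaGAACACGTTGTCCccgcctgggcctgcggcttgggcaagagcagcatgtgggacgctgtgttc

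In the RNA-seq data, 9 of the 10 members had a higher FPKM in R5020 than in EtOH and *KLF3* a lower one. Over all 11018 genes that reached FPKM 1 in either library, 5607 had a higher FPKM in R5020 and 5411 a lower one. The members were low to moderate in level. Their summed FPKM per gene ran from 0.148 to 7.15 in EtOH, with a median of 1.97, and from 2.09 to 14.5 in R5020, with a median of 2.73. The median of all 11018 retained genes, those that reached FPKM 1 in either library, was 5.09 in EtOH and 5.32 in R5020. FPKM is divided by transcript length, so that levels can be ordered between genes. In EtOH the order from the highest was *KLF6*, *KLF3*, *KLF4*, *KLF5*, *KLF7*, *KLF11*, *KLF9*, *KLF13*, *KLF10* and *KLF15*. In R5020 it was *KLF4*, *KLF6*, *KLF5*, *KLF7*, *KLF11*, *KLF15*, *KLF3*, *KLF10*, *KLF13* and *KLF9*. By FPKM, *KLF4* thus moved from the third place to the first, *KLF3* from the second to the seventh and *KLF15* from the last to the sixth. The intervals deposited with the FPKM values give other places in R5020. That of *KLF4*, 9.54 to 11.1, lay mostly below that of *KLF6*, 11.1 to 12.3. That of *KLF15*, 1.30 to 1.94, lay below that of *KLF3*, 2.17 to 2.57. Neighbours in either order, such as *KLF9*, *KLF13* and *KLF11* in EtOH at 1.38, 1.32 and 1.40, cannot be told apart without replicates.

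**Figure D1:**
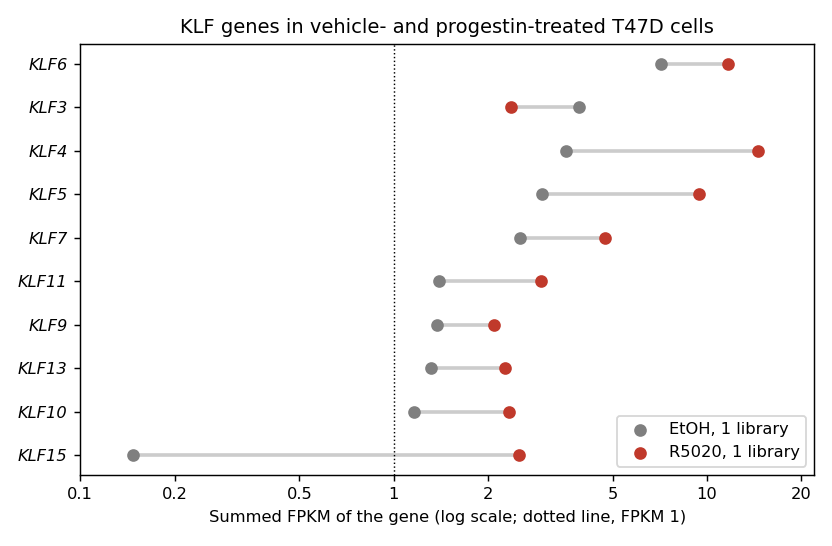
Summed FPKM of each KLF gene (log scale) in the EtOH library (grey) and the R5020 library (red), 1 point per library, ordered by the level in EtOH; the dotted line marks FPKM 1. In 9 genes the R5020 point lies to the right of the EtOH point, most of all in *KLF15* (0.148 and 2.51 FPKM), and *KLF3* is the exception (3.89 and 2.37 FPKM). Of all 11018 retained genes, 5607 were higher in R5020 and 5411 lower.

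For each gene the log2 fold change was taken after adding 1 to both FPKM values, with positive values where R5020 was higher, and 1.5-fold served as the threshold. By this rule 7 of the 10 members were higher in R5020 (*KLF4*, *KLF15*, *KLF5*, *KLF11*, *KLF7*, *KLF6* and *KLF10*), none was lower and 3 lay within the threshold (*KLF3*, *KLF9* and *KLF13*). Over all retained genes, 7.67% passed the threshold with a higher and 4.14% with a lower value. The median log2 fold change was 0.67 over the members and 0.01 over all retained genes. The 10 members were chosen with earlier results of these libraries known, so these counts describe the members and are no test of the family.

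**Figure D2:**
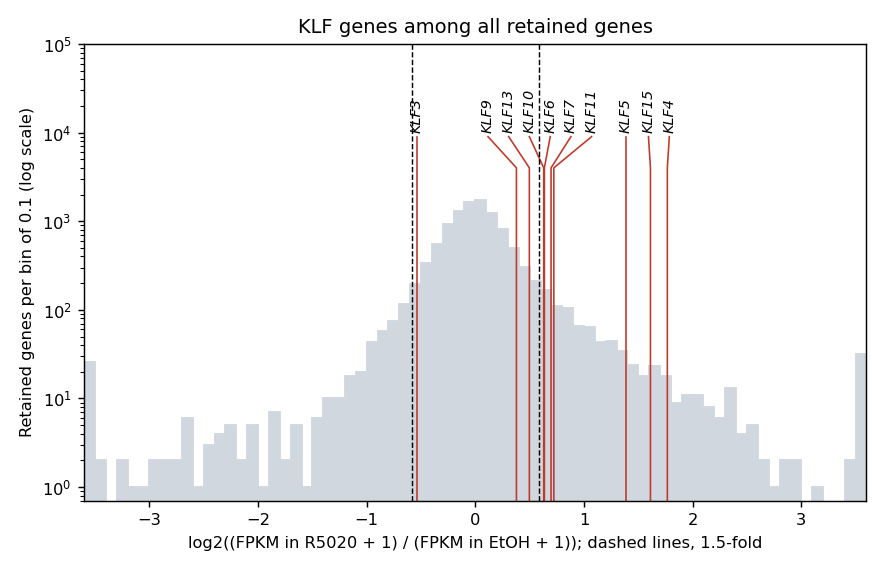
Number of retained genes per bin of log2 fold change (log scale; values beyond the axis are in the outer bins), with a red line for each of the 10 KLF genes; dashed lines mark 1.5-fold. The 7 KLF genes to the right of the upper dashed line lie between 0.63 and 1.77, and *KLF3* at −0.54 lies just inside the lower one.

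All 4 genes of the activator class were past the threshold. *KLF4*, a factor of epithelial differentiation and cell cycle exit that also serves in reprogramming to pluripotency, stood at 3.56 FPKM in EtOH and 14.5 FPKM in R5020 (log2 fold change 1.77). Its annotated gene is chr9:110247133-110252047 on the minus strand. Converted from coverage and length to 50-nt reads, these values rest on about 1003 reads in EtOH and 3951 reads in R5020. *KLF5*, which promotes proliferation in the basal layers of epithelia, lies at chr13:73633142-73651676 (plus strand) and stood at 2.97 and 9.39 FPKM (1.39), on about 967 and 2897 reads. Both were above 3-fold as plain ratios, 4.08 for *KLF4* and 3.16 for *KLF5*. These were the widest ratios among the members above FPKM 1 in EtOH.

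*KLF6*, described as a growth suppressor that induces the cell cycle inhibitor p21, lies at chr10:3818188-3827473 (minus strand). It was the member with the highest FPKM in EtOH, at 7.15, and reached 11.7 with R5020 (0.64). Of its 4 RefSeq transcripts, NM_001300 carried the whole value in both libraries and the other 3 were listed at 0. The 4 share the same annotated start and have nearly the same length, 4508 to 4662 nt, and the division of reads among them has no check. *KLF7*, known from the development of the nervous system, lies at chr2:207945529-208030614 (minus strand) and went from 2.54 FPKM in the vehicle to 4.73 with the hormone (0.70). It had the fewest reads of this class, about 354 in EtOH and 588 in R5020. Its annotated transcript is short (1639 nt), and its FPKM was the lowest of the class in both libraries.

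In the SIN3A-recruiting class 2 of 4 genes were past the threshold, and the 4 log2 fold changes ran from 0.38 to 0.72. *KLF10* and *KLF11*, both first described as early genes induced by TGF-β, were at 1.16 and 1.40 FPKM in EtOH and at 2.34 and 2.96 in R5020. Their log2 fold changes were 0.63 and 0.72. The genes lie at chr8:103661005-103667983 (minus strand) and chr2:10183682-10194963 (plus strand). *KLF9*, at chr9:72999513-73029573 (minus strand), went from 1.38 to 2.09 FPKM (log2 fold change 0.38) with no change past the threshold. *KLF13*, a regulator of a chemokine gene in T cells, lies at chr15:31619083-31670102 (plus strand) and had 1.32 and 2.27 FPKM (0.50), also within it. All 4 genes lay below 1.5 FPKM in EtOH, where the added 1 takes much of the change. Their plain ratios of R5020 to EtOH were 2.02 for *KLF10*, 2.11 for *KLF11*, 1.72 for *KLF13* and 1.52 for *KLF9*, all above 1.5. By this plain ratio 10.2% of all retained genes passed 1.5-fold upward and 7.67% downward.

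The transcripts of *KLF10* and *KLF11* did not all move alike. Of *KLF10*, NM_005655 stood at 0.850 FPKM in EtOH and 1.92 FPKM in R5020, whereas NM_001032282, which starts at another annotated position, had 0.308 and 0.415. The share of NM_005655 in the gene's FPKM was 73.4% in EtOH and 82.2% in R5020. Of *KLF11*, NM_003597 had 0.742 and 2.02 FPKM. NM_001177718 was at 0.657 FPKM in EtOH and listed at 0 in R5020, and NM_001177716 was listed at 0 in EtOH and at 0.938 in R5020. These 3 transcripts have different annotated starts and nearly the same length, 4030, 4033 and 3885 nt, and with 1 library per condition the division of reads among them has no check. The highest transcript alone, in place of the sum, left *KLF10* and *KLF11* past the threshold, at 0.66 and 0.79.

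*KLF15*, a regulator of amino acid and glucose metabolism at chr3:126061478-126076236 (minus strand), had the widest ratio of all members. It was at 0.148 FPKM in EtOH, the only member below 1, and at 2.51 in R5020, which is 17.0 times higher as a plain ratio and 1.61 as the log2 fold change with the added 1. The EtOH value rests on about 37 reads against about 576 in R5020, so that the size of the ratio is far less certain than that of *KLF4* or *KLF5*.

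*KLF3*, a repressor that recruits CtBP, at chr4:38665790-38703129 (plus strand), was the only member with a lower FPKM in R5020, at 3.89 in EtOH and 2.37 in R5020. Its log2 fold change of −0.54 was within the 1.5-fold threshold. With a pseudocount of 0.1 it was −0.69 and past it, on about 2071 reads in EtOH and 1209 in R5020. Its plain ratio, without the added 1, was 0.608 and likewise past 1.5-fold. By its own rule, a 1.5-fold change with a cut-off on the p-value, the paper listed *KLF3* as down-regulated. It reported the same direction by RT-qPCR, a separate measurement of RNA, in biological replicates.

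The FPKM intervals that the authors deposited describe the estimate within each library and not the spread between cultures. For the main transcript of each member, the intervals of the R5020 and EtOH libraries did not overlap in 10 of 10 cases. The same held for 48.1% of the 13579 transcripts that reached FPKM 1 and had a valid estimate in both libraries, so that separate intervals are common in these data. In 5 members (*KLF4*, *KLF5*, *KLF7*, *KLF13* and *KLF15*) the FPKM lay above its own interval in at least 1 library. For *KLF4* the interval in R5020 was 9.54 to 11.1, below the FPKM of 14.5. The ratio of the interval midpoints was nevertheless near that of the FPKM values, 3.97 against 4.08 for *KLF4*, 3.10 against 3.16 for *KLF5*, 1.80 against 1.87 for *KLF7* and 1.68 against 1.72 for *KLF13*. For *KLF15* it was 13.9 against 17.0.

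To see where the receptor was bound, the deposited PR sites in or within 50 kb of each gene were counted. In all, 6 of the 10 members had at least 1 site (*KLF4*, *KLF9*, *KLF10*, *KLF11*, *KLF13* and *KLF15*), with 13 sites among them, and *KLF3*, *KLF5*, *KLF6* and *KLF7* had none. Over all retained genes 52.7% had a site within this distance, so the share of members, 60.0%, was close to the background. The 6 members all had a site within 10 kb, where the share over all retained genes was 33.0%. The median length of the genes was 16.6 kb for the members and 26.8 kb for all retained genes.

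Sites lay beside members on both sides of the threshold. Of the 7 members past 1.5-fold, 4 had a site (57.1%), as did 2 of the 3 within the threshold, *KLF9* and *KLF13*. Of the 845 genes past the threshold with a higher value, 61.4% had a site within 50 kb. In the activator class 1 of 4 genes had a site, and in the SIN3A-recruiting class 4 of 4 did, beside 52.7% of all retained genes. With 4 genes in each, these counts describe the genes and cannot tell whether the classes differ.

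**Figure D3:**
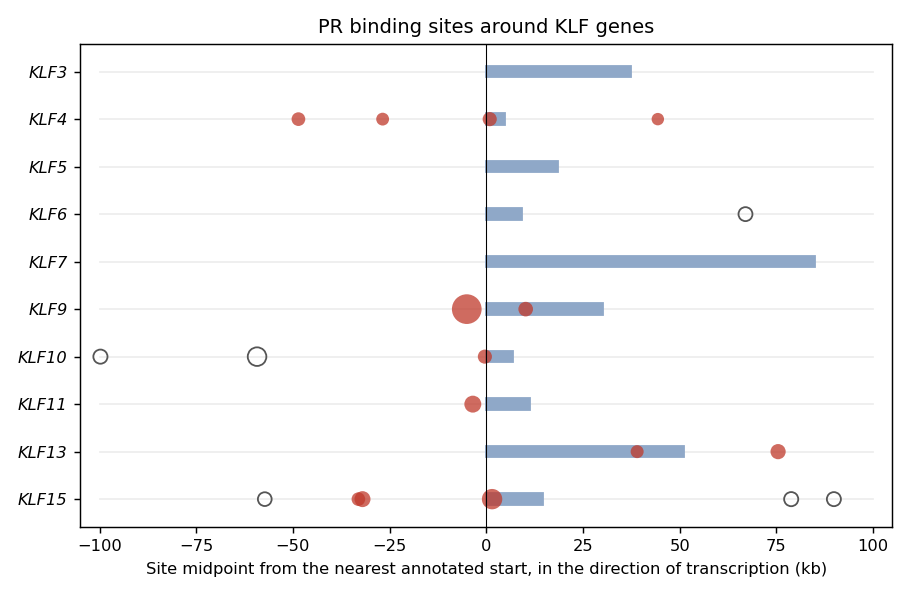
PR binding sites within 100 kb of each KLF gene, by the distance of the site midpoint from the nearest annotated start in the direction of transcription (kb); bars are gene bodies, filled red circles are sites within 50 kb of the gene, open circles are sites beyond it, and the circle area follows the site score. *KLF9*, *KLF10*, *KLF11*, *KLF4* and *KLF15* have a site close to the start, and the rows of *KLF3*, *KLF5* and *KLF7* are empty.

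The score that MACS gave each site is higher for a smaller p-value. It starts at 50 in the file, with a median of 74.5 over the 11181 sites. The 13 sites near the members ranged from 52.7 to 300.53, with a median of 68.2. Only 2 of the 13 (15.4%) scored 100 or more, as did 16.3% of all sites.

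The strongest site was that of *KLF9*. It spanned 1281 bp at chr9:73033997-73035277, had a score of 300.53 and ranked 122 of the 11181 sites. Its edge was 4.42 kb and its midpoint 5.06 kb upstream of the *KLF9* start, with no protein-coding gene at the midpoint. The element GAACAGTTTGTCC printed above lay in this site, 411 bp from the midpoint. A second site with a score of 72.9, in an intron 10.2 kb downstream of the start (chr9:73019217-73019583), held neither this element nor its core ACANNNTGT. *KLF9* therefore combined the highest score with the smallest log2 fold change, 0.38, in absolute size among the members.

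*KLF15* had the second strongest site, at chr3:126074500-126075005, with a score of 142 and rank 550. It lay inside the gene, its midpoint in an intron 1.48 kb from the start, and held GGACACGCTGTTC at 78 bp from the midpoint and a further core match, ACAACATGT, at 184 bp. The other 2 sites lay upstream of the gene, with scores of 87.0 and 63.2, at 32.0 and 33.1 kb from the *KLF15* start. Both were nearer to the start of *CCDC37*, at 5.53 and 4.46 kb, a gene listed at an FPKM of 0 in EtOH and R5020. Among the starts of the deposited transcripts, these were the only 2 of the 13 sites with another gene nearest. GENCODE places the midpoints of the strongest *KLF9* site, the *KLF11* site and the *KLF4* sites in the gene and downstream of it inside long noncoding RNA genes. The GENCODE starts were not searched.

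*KLF11* had 1 site, with a score of 97.9 and rank 1937, at chr2:10179851-10180518. Its midpoint was 3.50 kb upstream of the start, outside protein-coding genes. It held the core as ACAGACTGT, 50 bp from the midpoint, but no match of the longer element. The stretch at chr2:10180080-10180188 is shown with the core in capitals, since it lacks the outer bases that the 3 stretches above have.
KLF11: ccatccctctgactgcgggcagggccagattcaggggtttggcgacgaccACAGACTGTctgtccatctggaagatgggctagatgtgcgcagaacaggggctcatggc

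*KLF4* had the most sites, 4, and all were of low score, from 52.7 to 68.2. One lay in the gene itself, at chr9:110250942-110251411, with its midpoint in an intron 0.870 kb from the start. The others lay 26.8 and 48.6 kb upstream and 44.3 kb downstream of the start. For each, *KLF4* had the nearest start among the deposited transcripts. None of the 4 held the longer element, and only the site farthest upstream held the core. The site in the gene held the GC box GGGCGG at 4 positions.

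The site of *KLF10* was closest to a start, with its edge 155 bp and its midpoint 0.378 kb upstream, and had a score of 68.0. It held neither the element nor its core and had 4 GC boxes. *KLF13* had a site with a score of 57.6 in an intron, 39.0 kb from the start, with the element GAACACGTTGTCC 50 bp from the midpoint. Its other site, with a score of 78.8, lay 24.2 kb beyond the end of the RefSeq gene, 75.4 kb from the start, inside the longer *KLF13* locus of GENCODE. The weakest of the 3 sites with the element was thus that of *KLF13*, which had rank 9739.

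**Figure D4:**
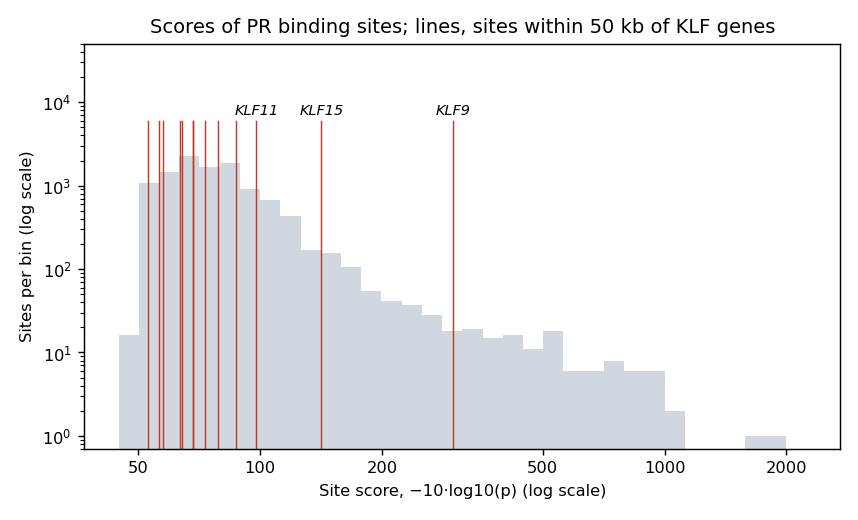
Number of PR binding sites per bin of score (both axes log scale), with a red line for each of the 13 sites within 50 kb of a KLF gene. Most lines fall in the lower part of the distribution, and those of *KLF11* (97.9), *KLF15* (142) and *KLF9* (300.53) stand to the right.

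The whole sites were searched for 6 sequences on both strands. The longer element was present in 3 of the 13 sites and in 2.40% of all 11178 sites with sequence. Of these 3, the *KLF9* site is 1281 bp wide, against a median of 461 bp over all sites, so it holds more sequence to match. ACANNNTGT, which is part of it, was present in 5 of the 13 and in 11.6% of all. In the 300 bases around the midpoint, the longer element was present in 2 of the 13 and in 1.89% of all sites, because that of *KLF9* lies farther out. Within these 300 bases, AGAACA, a single arm of the repeat, was found in 3 sites (17.7% of all), the forkhead sequence TGTTTAC in 1 (2.58%), GGGCGG in 5 (24.1%) and CACCC, which KLF proteins can bind, in 9 (69.1%). In whole sites the same 4 sequences were found in 2 (25.2%), 1 (4.07%), 5 (31.7%) and 11 (79.7%). With 13 sites these counts are a description.

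Of the 4 members without a site, *KLF6* had the nearest, 57.5 kb from the gene with a score of 66.4. For *KLF7* the nearest site was 477 kb away, for *KLF3* 735 kb and for *KLF5* 793 kb. *KLF5* had the third highest log2 fold change of the members and the most distant site. The chromosomes of these 3 genes carried few sites in all, with 1.25 per Mb on chromosome 2, 1.13 on chromosome 4 and 0.808 on chromosome 13, against 3.68 over the genome. Of the retained genes on these chromosomes 29.4%, 26.4% and 25.8% had a site within 50 kb. The part of this low density in the absence of sites at *KLF3*, *KLF5* and *KLF7* was not tested. *KLF11* lies on chromosome 2 as well and had a site.

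For comparison, relatives and partners of the members were read in the same way. Of the 7 other KLF genes, 5 stayed below FPKM 1 in both conditions. *KLF8*, a repressor of the CtBP class, was at 6.30 FPKM in EtOH and 8.21 in R5020 (log2 fold change 0.34), which would place it second among the members in EtOH. *KLF16* was at 1.87 and 2.25 (0.18). Both values of *KLF16* lay above their own intervals, 0.536 to 0.895 in EtOH and 0.636 to 1.06 in R5020, so its level is uncertain. Of the 9 SP genes, the nearest relatives of the KLF family, 4 were retained. *SP6*, an epithelial factor of tooth and skin development, went from 1.01 to 2.69 FPKM (0.88), past 1.5-fold, while *SP1*, *SP2* and *SP3* lay between −0.40 and −0.11. The R5020 value of *SP6* lay above its own interval, 1.87 to 2.45.

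Among 13 partners of KLF proteins, which include CtBP, SIN3A, histone deacetylases, acetyltransferases and ubiquitin ligases, 13 were retained and 1 was past the threshold. This was *KAT2B*, the acetyltransferase PCAF, at 2.58 FPKM in EtOH and 4.58 in R5020 (0.64). *CTBP1* and *SIN3A* were at −0.30 and −0.13. Among 7 genes known as targets of KLF proteins, *CCND1*, which encodes cyclin D1, was past the threshold, at 22.2 FPKM in EtOH and 120 in R5020 (2.38). Both *CCND1* values lay above their own intervals, 15.4 to 17.1 in EtOH and 84.4 to 88.1 in R5020, so its level is uncertain. The ratio of the interval midpoints was 5.31, against a plain ratio of 5.41. *CDKN1A*, which encodes p21, was at 10.0 and 9.70 FPKM (−0.04), and *CDH1*, which encodes E-cadherin, at 102 and 99.2 (−0.04). Both *CDH1* values lay below their own intervals, 107 to 110 in EtOH and 104 to 107 in R5020. *SMAD7*, an inhibitor of TGF-β signalling, had the most negative value of this list, with 1.90 FPKM in EtOH and 1.05 in R5020 (−0.50), within the threshold, and a plain ratio of 0.556, past it. The median log2 fold change was 0.26 over the 2 retained other KLF genes and −0.21 over the retained SP genes. It was −0.01 over the partners and −0.04 over the targets, beside 0.67 over the KLF members. The shares of all retained genes past the threshold, 7.67% and 4.14%, are the background of these counts too.

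**Figure D5:**
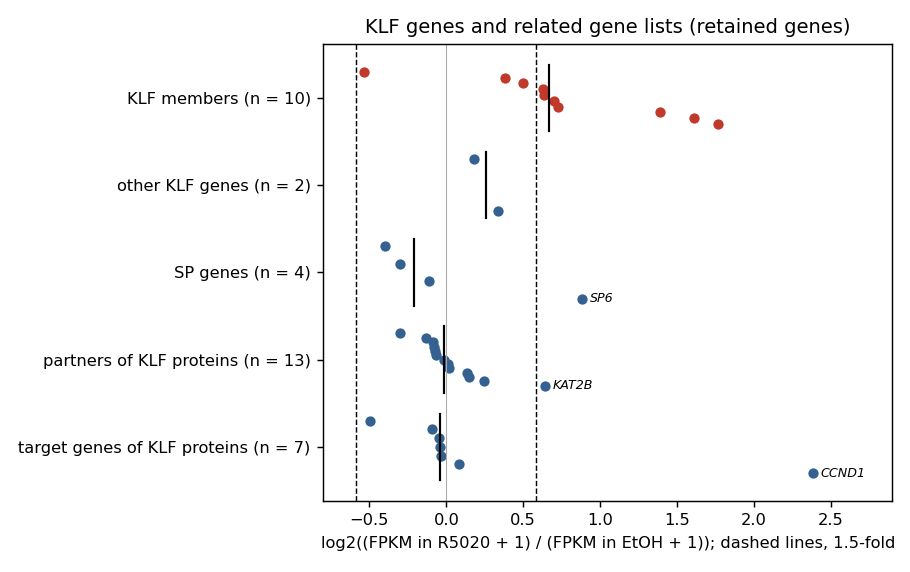
Log2 fold change of each retained gene in the KLF members (red) and in 4 related gene lists (blue), 1 point per gene; short black lines are medians and dashed lines mark 1.5-fold. The members have a median of 0.67, the other lists lie closer to 0, and *SP6*, *KAT2B* and *CCND1* are the genes of these lists past the threshold.

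Depth and cell identity were as follows for the series. By the same conversion the libraries corresponded to 36203604 reads in R5020 and 35151493 in EtOH, sums over the listed transcripts that do not give the order of sequencing depth. The reads behind 1 FPKM were 1.04 times as many in EtOH as in R5020 (median of 11471 transcripts), and the median log2 ratio of genes expressed in both conditions was 0.01. Of the luminal markers, *ESR1*, *PGR*, *GATA3*, *FOXA1* and *KRT19* were above 10 FPKM in both libraries, and all 5 had a lower value in R5020. *FOXA1* stood at 64.3 FPKM in EtOH and 14.7 in R5020, *GATA3* at 253 and 126, *PGR* at 23.7 and 15.3, *ESR1* at 17.2 and 10.9 and *KRT19* at 608 and 477. *TFF1* was at 1.88 and 0.442. The part of these lower luminal markers in the KLF values was not tested. *KRT8* and *KRT18* were at 285 and 174 in R5020 and listed at 0 in EtOH, where the estimate had failed. The basal and mesenchymal markers *KRT5*, *KRT14*, *TP63* and *VIM* and the immune marker *PTPRC* were below 1, while the fibroblast marker *COL1A1* was at 5.12 in EtOH and 3.31 in R5020. None of the transcripts of the 10 members had a failed estimate.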

How the data were processed

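RNA-seq reads (50 nt, paired-end) were mapped by the authors to hg19 with TopHat, keeping unique alignments, and abundance was estimated with Cufflinks. They deposited FPKM per RefSeq transcript, with an interval, a status and a coverage (mean read depth), so FPKM values are already divided by length and library size. For ChIP-seq the authors aligned reads with Bowtie 1.1.2 (per the submitters' processing notes), called sites with MACS against input DNA (p of at most 1e-05, at least 10-fold) and deposited positions with a score.

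Transcripts were joined by identifier and FPKM was summed per gene symbol. A gene was retained if either library reached FPKM 1, a pseudocount of 1 was added, and 1.5-fold was the threshold, with no test, since each condition had 1 library. Read depth behind a value is coverage times length over 50 nt, an estimate, not a count. Site distance is the gap between site and gene extent, with a limit of 50 kb. Strands and introns were taken from GENCODE (release 44, lifted to GRCh37), and sequence from GRCh37, which is the hg19 assembly. All coordinates of the files on its chromosomes lay inside it, and 11178 of 11181 sites had sequence. The nearest start was sought among all deposited transcripts, with both ends tried for transcripts whose strand was not found by symbol (33602 of 41138 were found). The members and gene lists were chosen with earlier results of these data known. All members are named, as are list genes past 1.5-fold, the gene with the nearest start to a site, and some list genes within the threshold that were chosen after their values were seen. In simulated data, changes without noise were put into genes of higher expression in EtOH and were recovered. This checks the computation and not the calls at the low levels of most members. Computing was done in Python (3.11.15) with numpy (2.4.6), pandas (2.3.3) and, for plots, matplotlib (3.10.9).

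Alternatives tried were a pseudocount of 0.1, other FPKM filters, 2-fold, rescaled FPKM, the highest transcript, interval midpoints, other distances and a score of at least 100. The plain ratio and the search of whole sites were added after seeing the data.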

Additional observations from a re-analysis of the deposited data

How the results depend on the processing

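Most alternatives for the fold change (the pseudocount, the filters, the threshold and the rescaling by 1.01) could not turn a member's direction by construction, so direction under them is no sign of stability. Of those that could, the interval midpoint left all 10 members on their side of the threshold, as did the highest transcript, which differs from the sum only for *KLF10* and *KLF11*. Of the members, 7 were higher by 1.5-fold; at 2-fold 3 were (*KLF4*, *KLF5* and *KLF15*), with 3.43% of all retained genes higher and 1.31% lower. With a pseudocount of 0.1 the number of lower members went from 0 to 1 (*KLF3*, −0.69) and *KLF13* passed the threshold at 0.74, while 9.91% of all genes were higher and 7.14% lower. The plain ratio, added after seeing the data, also gave 1 lower member (*KLF3*, −0.72) and brought *KLF9* (0.60) and *KLF13* (0.79) past the threshold, which makes 9 higher, beside 10.2% of all retained genes higher and 7.67% lower. Requiring FPKM of 1 in both conditions removed *KLF15*. The number of members with a PR site was 6 at 10, 25 and 50 kb and 7 at 100 kb, where *KLF6* joined, beside 33.0%, 42.1%, 52.7% and 64.3% of all retained genes. With sites of score 100 or more it was 2 (*KLF9* and *KLF15*), beside 18.1% of all retained genes. No paired analysis was possible because each condition had 1 library, and for the same reason no replicate could be left out. Low depth limits *KLF15* in EtOH most.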
